A study of Mus musculus with 12 samples.

Results

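The genes that brown fat uses to make heat were examined in mouse aorta. They were Ucp1 and whichever of Cidea, Elovl3, Cox7a1, Cox8b, Ppargc1a, Dio2, Otop1, Kcnk3 and Adrb3 the deposited table lists by symbol. Of these 10 genes, 9 were in the table, out of 3532 genes in all, and Ppargc1a was not analysed here. Messenger RNA of aorta was sequenced in 12 samples of 4 groups, with 3 files per group. The WT group had the wild-type genotype and a normal diet, and the HFD and HAPN groups had the same genotype and a high-fat diet (60% of energy from fat). The HSAPN group had an APPL1 knockdown and the high-fat diet. The diets were given for 12 weeks, per the labels. The sources used here do not give what set HAPN apart from HFD, how the knockdown was made, the number of animals per sample, the strain or the age. Appl1 was not analysed here, so the knockdown was not checked. The labels do not say whether the fat around the vessel was kept with it.

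HFD replicates 1 and 2 held the same values in every row and were counted as 1 library, called HFD1/2 here, so HFD had 2 distinct libraries and the series 11. Nothing says that the replicates came from separate animals, so p-values measure only the spread between these libraries. Levels are in FPKM, fragments scaled by transcript length and library size, which can be compared between genes. Reading the values as FPKM gave back 15690000 to 17880000 reads per library, and 1 read on 1 kb was then worth 0.0559 to 0.0638 FPKM. The table held 12.0 to 17.6% of a library's reads. Of 15 smooth muscle markers 12 were in the table, at widely differing levels. Acta2, an actin of the vessel wall, ran from 146 FPKM in HFD3 to 1607 FPKM in WT2. Tagln of the same list ran from 0.279 to 3.32 FPKM. None of 12 endothelial markers was in the table.

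Brown adipocytes burn fuel in mitochondria whose inner membrane is made leaky to protons by UCP1, so that respiration gives heat in place of ATP. Noradrenaline starts the process through beta-adrenergic receptors and cyclic AMP, which raise transcription of Ucp1 and of the deiodinase gene Dio2. Fat around the thoracic aorta of mice resembles brown fat. Several genes used as brown fat markers are also expressed elsewhere: Cox7a1 and Cox8b encode the forms of 2 cytochrome c oxidase subunits that heart and skeletal muscle use, and Kcnk3 encodes a potassium channel of vascular smooth muscle and other cells.

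The start regions of 3 members are shown because Ucp1 was the member chosen as the centre of the list and because Cox7a1 and Cox8b had nearly the same pattern over libraries. Each is the 250 bases before the RefSeq transcription start in GRCm38.p6, 5′ to 3′. Capitals mark a cyclic AMP response element core (TGACG) or a nuclear receptor half-site (AGGTCA). The regions are chr8:83290098-83290347 on the plus strand for Ucp1, chr7:30183921-30184170 on the plus strand for Cox7a1 and chr7:140900447-140900696 on the minus strand for Cox8b.
Ucp1: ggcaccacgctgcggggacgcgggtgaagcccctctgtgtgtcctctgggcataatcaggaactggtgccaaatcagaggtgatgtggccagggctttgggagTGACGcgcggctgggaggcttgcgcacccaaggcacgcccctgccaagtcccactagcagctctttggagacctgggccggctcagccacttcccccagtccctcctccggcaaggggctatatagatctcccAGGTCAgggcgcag
Cox7a1: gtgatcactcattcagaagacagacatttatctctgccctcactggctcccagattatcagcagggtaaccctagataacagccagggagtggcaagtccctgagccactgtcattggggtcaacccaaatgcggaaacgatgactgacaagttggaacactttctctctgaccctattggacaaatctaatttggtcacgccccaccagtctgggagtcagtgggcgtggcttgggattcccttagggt
Cox8b: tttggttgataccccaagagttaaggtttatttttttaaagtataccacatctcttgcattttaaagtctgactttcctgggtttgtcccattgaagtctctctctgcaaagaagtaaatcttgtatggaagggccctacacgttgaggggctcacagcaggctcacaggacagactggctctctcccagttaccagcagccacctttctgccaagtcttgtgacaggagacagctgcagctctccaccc

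Motifs were searched on both strands in windows of this length. TGACG stood at -147 of Ucp1 and AGGTCA at -14, counted from the start site to the first base of the match. TGACG was in 17.8% of 32851 promoters and AGGTCA in 14.0%. The windows of Cox7a1 and Cox8b held neither of them, nor TATAAA, which was in 12.4% of promoters. Each held 1 E-box (CANNTG, in 66.2% of promoters), at -124 and at -19. The Dio2 window (chr12:90739039-90739288, minus strand) held TGACG on both strands, at -95 and -92, as overlapping matches, and TATAAA at -30. The Otop1 window (chr5:38277154-38277403, plus strand) held only 1 E-box, at -119. The RefSeq start matched that of the gene annotation only for Cox8b. The Cox7a1 window ran past the annotated start at 30184144. The Ucp1 window ended a few bases before the annotated start at 83290352. The Otop1 window lay inside the annotated gene, which starts at 38275972. The Dio2 window lay upstream of the annotated start at 90738438 without adjoining it. RefSeq windows were matched for 5 of the 9 members. These matches describe letters and are not binding sites.

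Ucp1 (chr8:83290352-83298452, plus strand, protein coding) was low in most of the aortas, at 9 reads or fewer in 9 of 11 libraries, and clearly above the limit of detection in WT3 and HFD1/2. It was at 0, 0.205 and 1.01 FPKM in WT, from 0, 6 and 28 reads. It was at 9.03 FPKM in HFD1/2 (235 reads) and 0.0368 FPKM in HFD3 (1 read). In HAPN it was at 0.0754, 0.309 and 0.195 FPKM, and in HSAPN at 0.104, 0.279 and 0 FPKM. HFD1/2 was thus 8.97-fold above the next library, WT3, and the 4 groups overlapped. Its counting interval (95%, exact Poisson) was 7.91 to 10.3 FPKM, and the count of 0 in WT1 and HSAPN3 allowed up to 0.105 and 0.111 FPKM (3 reads). Intervals and floors cover counting error only.

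The order of Ucp1 group means was HFD (4.53 ± 6.36 FPKM, SD, n = 2), WT (0.404 ± 0.532, n = 3), HAPN (0.193 ± 0.117, n = 3) and HSAPN (0.128 ± 0.141, n = 3), and no neighbours in that order were separated. The high mean of HFD was that of 1 library. Ucp1 lay below the filter on low values (1 FPKM in at least 3 libraries), so its test was read from a fit of the whole table. The difference of HFD from WT was 1.27 on the log2(FPKM + 1) scale (SE 0.754, limma adjusted p = 0.549), with 1 of 2 HFD libraries above all WT libraries. Without HFD replicate 3, which leaves HFD with 1 library assumed to vary like the other groups, it was 2.90 (limma adjusted p = 0.00221), in a fit that called 8.55% of the whole table. Without HFD replicates 1 and 2 it was -0.373, the opposite direction.

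**Figure D1:**
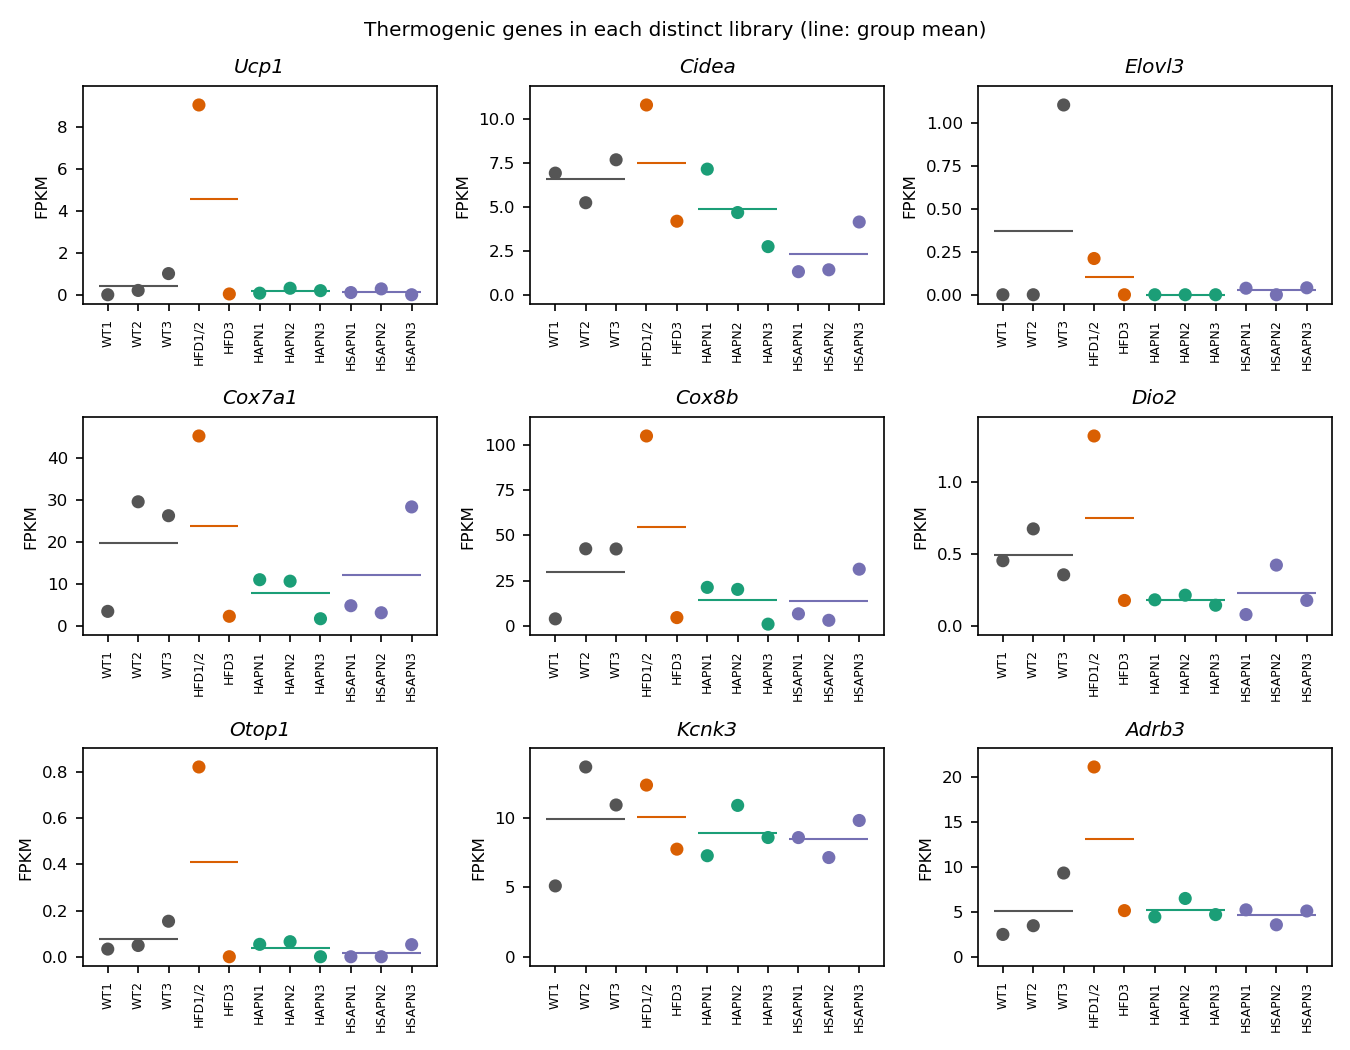
Level of each of the 9 thermogenic genes in each distinct library, in FPKM on a linear axis that includes 0. Points are libraries coloured by group and short lines are group means; HFD1/2 is the highest point for 7 of the 9 genes, all except Elovl3 and Kcnk3.

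Ucp1 was also set against adiponectin (Adipoq), a hormone made by fat cells. Adipoq itself ran from 0.0923 FPKM in HAPN3 to 92.6 FPKM in HFD1/2. The summed level of 23 adipocyte markers ran less widely, from 161 FPKM in HAPN3 to 2192 FPKM in HFD1/2. The share below thus sets Ucp1 against Adipoq alone and is not a level per amount of fat. In bulk tissue, fewer cells of a type and less RNA per cell cannot be told apart. Of the reads on Ucp1 and Adipoq together, Ucp1 took 10.4% in HFD1/2 (exact binomial 95% interval 9.13 to 11.7) and 2.17% in WT3 (1.45 to 3.12). These 2 libraries had the most Adipoq reads, 2034 and 1263. The share was 2.51% in WT2, 2.56% in HAPN1 and 2.27% in HAPN2, whose intervals all included the WT3 value. So the Ucp1 of HFD1/2 was high for its adiponectin as well as in itself, beside the other libraries with many Adipoq reads.

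In WT1 and HSAPN3 none of 59 and 93 reads were from Ucp1, which allowed up to 6.06 and 3.89%. HSAPN2 stood at 12.7% (5.65 to 23.5) on 63 reads of both genes. HFD3, HAPN3 and HSAPN1 held only 5, 7 and 16 reads of both, so that their shares had wide intervals. Even so, the share of HAPN3, 71.4% (29.0 to 96.3), lay above the interval of HFD1/2, on 5 Ucp1 and 2 Adipoq reads. With such counts the share of the HSAPN libraries could not be set apart from that of HFD1/2, except in HSAPN3.

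**Figure D2:**
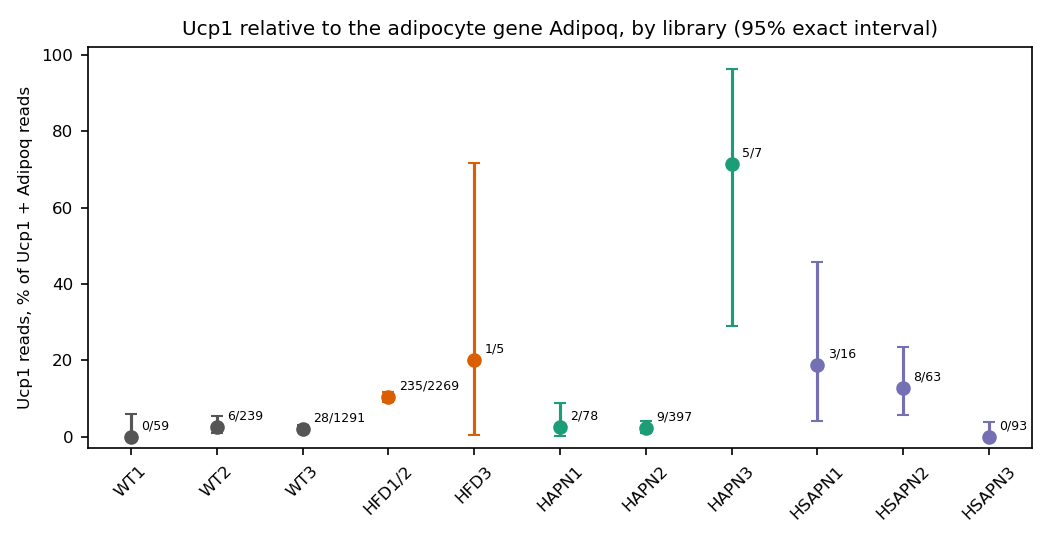
Reads on Ucp1 as a percentage of the reads on Ucp1 and Adipoq, by library, with exact binomial 95% intervals and both read numbers beside each point. HFD1/2 stands at 10.4% with a narrow interval above that of WT3 at 2.17%. The 3 libraries with 5, 7 and 16 reads have the widest intervals, and HAPN3, with 7 reads, stands highest at 71.4%.

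Otop1 (chr5:38275972-38304217), which encodes a proton channel used as a brown fat marker, was at 0.822 FPKM in HFD1/2 (45 reads). It was at 0.0332, 0.0487 and 0.154 FPKM in the WT libraries and at most 0.0652 in each of the others. HFD1/2 was 5.34-fold above WT3, the next library. HFD differed from WT by 0.325 on the log2 scale (SE 0.194, limma adjusted p = 0.549, whole table). Without HFD replicate 3 this was 0.758, and without HFD replicates 1 and 2 it was -0.107. Each of these fits leaves HFD with 1 library.

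Dio2 (chr12:90724552-90738438), whose enzyme makes active thyroid hormone inside brown fat cells, was at 1.32 FPKM in HFD1/2 (122 reads). It was at 0.452, 0.673 and 0.354 FPKM in WT, 0.176 in HFD3, 0.180, 0.212 and 0.143 in HAPN, and 0.0779, 0.422 and 0.176 in HSAPN. All 3 HAPN libraries lay below all 3 WT libraries. HAPN differed from WT by -0.336 on the log2(FPKM + 1) scale (SE 0.222, limma adjusted p = 0.415, whole table), which did not pass. Over the 4 groups Dio2 had a limma adjusted p of 0.482, and of 0.0304 without HFD replicate 3, with HFD then 1 library and 9.77% of the whole table called.

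Elovl3 (chr19:46131897-46135694), an elongase of very long fatty acids in brown fat, was at 1.102 FPKM in WT3 and 0.210 in HFD1/2. It was at 0.0379 FPKM in HSAPN1 and 0.0403 in HSAPN3, and listed at 0 in the other 7 libraries. It was thus the 1 member whose highest level by far was in a normal-diet library. Whole reads were not recovered for Elovl3 or Cidea, so no counts stand behind their values.

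Cidea, which encodes a lipid droplet protein of brown fat, was the member with the largest share of its spread between groups. It was at 6.92, 5.24 and 7.68 FPKM in WT and at 10.8 and 4.18 in HFD. It was at 7.15, 4.68 and 2.74 FPKM in HAPN and at 1.31, 1.42 and 4.14 in HSAPN. All 3 HSAPN libraries lay below every WT and HFD library, though HSAPN3 was only just below HFD3. Group means were 7.49 ± 4.68 FPKM in HFD (SD, n = 2), 6.61 ± 1.25 in WT (n = 3), 4.86 ± 2.21 in HAPN (n = 3) and 2.29 ± 1.60 in HSAPN (n = 3).

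HSAPN differed from WT in Cidea by -1.30 on the log2 scale (SE 0.423, unadjusted p = 0.0126, limma adjusted p = 0.168), and from HAPN by -0.86 (SE 0.423, limma adjusted p = 0.730). Neither passed the threshold of an adjusted p under 0.05. With libraries weighted by their estimated variability (array weights), the HSAPN to WT difference was -1.23 with a limma adjusted p of 0.0411. That fit called 395 of the 1659 tested genes (23.8%), against 0 without the weights, so the call did not set Cidea apart. Groups accounted for 58.8% of the sum of squares of Cidea, against a median of 42.7% over the 1659 tested genes. The summed level of 23 of 24 adipocyte markers ran from 222 to 1478 FPKM in WT, 245 to 2192 in HFD, 161 to 554 in HAPN and 218 to 326 in HSAPN, with no marker at 0 throughout a group. The part of fat content in the Cidea values was not tested.

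The oxidase genes varied widely within every group. Cox7a1 (chr7:30184144-30186078) was at 3.42, 29.5 and 26.2 FPKM in WT, 45.1 and 2.25 in HFD, 10.95, 10.6 and 1.67 in HAPN, and 4.76, 3.09 and 28.3 in HSAPN. Cox8b (chr7:140898945-140900446) was at 3.81, 42.6 and 42.5 FPKM in WT and at 105 and 4.51 in HFD. It was at 21.2, 20.1 and 0.886 FPKM in HAPN and at 6.61, 3.01 and 31.3 in HSAPN. Both genes were high in the same 6 libraries (WT2, WT3, HFD1/2, HAPN1, HAPN2 and HSAPN3) and low in the same 5, and every group held libraries of both kinds. For Cox8b the lowest of the 6 was 3.05-fold above the highest of the 5, and for Cox7a1 2.23-fold.

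Pearson's r between Cox7a1 and Cox8b was 0.975 over the 11 libraries (Spearman's rho 0.964), and 0.968 without HFD1/2. Groups accounted for 9.55% of the sum of squares of Cox7a1 and 11.8% of that of Cox8b. No difference between groups approached the threshold: HFD against WT gave -0.33 for Cox7a1 (SE 1.33, limma adjusted p = 0.943) and 0.21 for Cox8b (SE 1.60, limma adjusted p = 0.978). With standard errors of this size, a difference of severalfold could have been missed.

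Heart muscle genes moved with these members. Of 24 heart muscle markers 3 were in the table (Tnni3, Tnnt2 and Myl4), and none was at 0 throughout a group. Their summed level ran from 48.3 to 310 FPKM in WT, 7.92 to 389 in HFD, 7.79 to 129 in HAPN and 15.6 to 155 in HSAPN. All 3 were highest in the same 6 libraries as Cox7a1 and Cox8b. So was Cox6a2, the heart and muscle form of a further oxidase subunit, which was picked for this comparison after its values were seen. Bpifa1, a secreted airway protein and the 1 of 10 airway markers in the table, was also highest in these 6 libraries, at 840 to 10730 FPKM against 2.81 to 238 in the other 5.

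Adipoq and Otop1 also had their 6 highest values there, with smaller gaps of 1.39-fold and 1.47-fold. Pearson's r of Cox8b was 0.943 with Tnni3 (rank 12 of 1658 genes) and 0.857 with Adipoq (rank 65). For Cox7a1 it was 0.948 with Tnni3 (rank 10) and 0.837 with Adipoq (rank 91). After subtraction of the mean level of the heart muscle list, the SD of Cox8b over libraries fell from 1.81 to 0.635 log2 units, and after subtraction of the adipocyte list to 1.004. For Cox7a1 it fell from 1.48 to 0.692 with the heart list and to 0.794 with the adipocyte list. The SD left after subtraction also depends on how widely the list mean varied. Pearson's r with the heart and adipocyte list means was 0.959 and 0.850 for Cox7a1, and 0.947 and 0.869 for Cox8b. These are descriptions over libraries that differed widely in heart, airway and fat genes. The part of heart or airway tissue in the oxidase values was not tested.

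**Figure D3:**
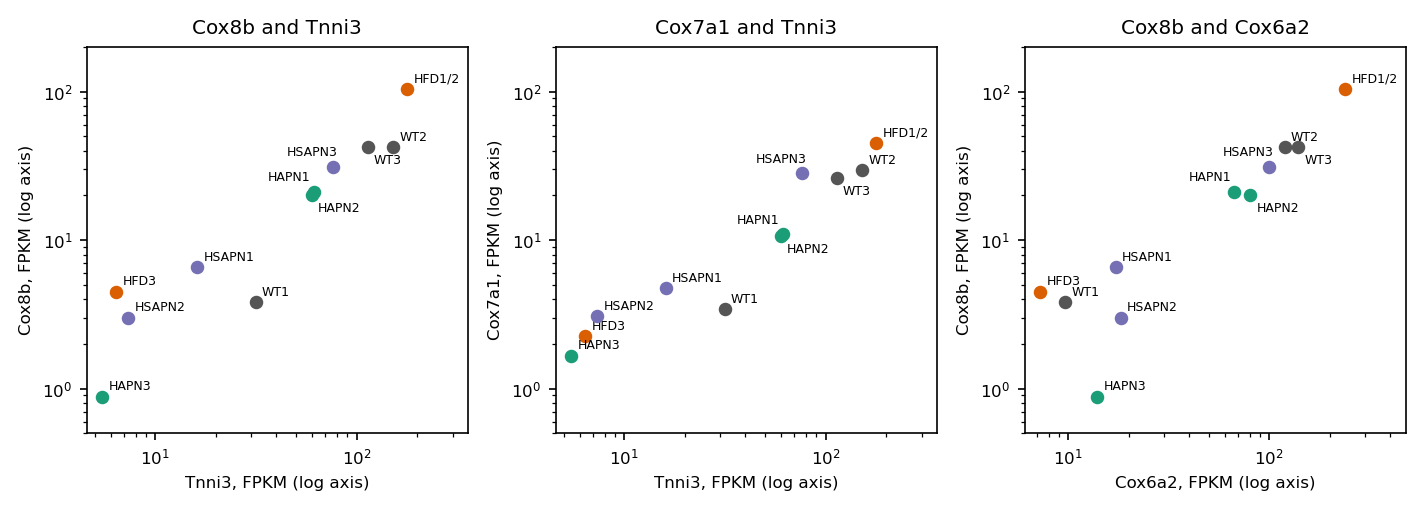
Cox8b and Cox7a1 against the heart muscle gene Tnni3, and Cox8b against Cox6a2, in FPKM on log axes, 1 point per distinct library coloured by group. The 6 libraries high in Tnni3 are those high in both oxidase members, and each group has libraries at both ends.

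Some cytochrome c oxidase subunits come in pairs of a heart and muscle form and a form used by most tissues. Each such pair shows what share of its RNA was of the first form. Cox7a1 made up 2.33 to 33.5% of the summed FPKM of Cox7a1 and Cox7a2 (median 13.2%). Cox8b made up 0.262 to 24.2% of Cox8b and Cox8a (median 6.16%), and Cox6a2 made up 2.25 to 47.8% of Cox6a2 and Cox6a1 (median 21.8%). HFD1/2 had the highest share in all 3 pairs. The form used by most tissues was therefore the main one in every library, and varied little: Cox7a2 ran from 59.6 to 95.8 FPKM.

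**Figure D4:**
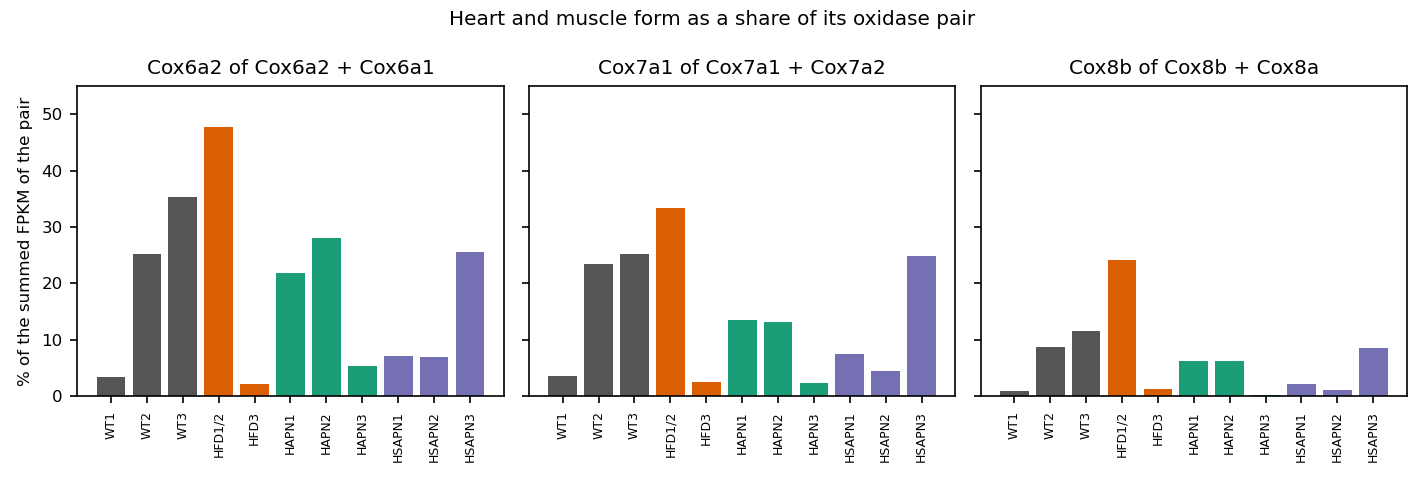
Share of the heart and muscle form in the summed FPKM of 3 pairs of oxidase subunit genes, by distinct library, as bars from 0 coloured by group. In each panel 6 libraries are higher than the other 5, with HFD1/2 highest at 47.8, 33.5 and 24.2%.

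Kcnk3 (chr5:30588170-30625271), which encodes a potassium leak channel, was the steadiest member relative to its level. It was at 5.09, 13.6 and 10.9 FPKM in WT, 12.3 and 7.73 in HFD, 7.26, 10.9 and 8.56 in HAPN, and 8.56, 7.13 and 9.79 in HSAPN. The highest library was 2.68-fold above the lowest, and both were WT libraries. Groups accounted for 3.80% of its sum of squares, and its limma adjusted p over the 4 groups was 0.961. Kcnk3 was at 8.56 FPKM in HAPN3, where Adipoq was at 0.0923.

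Adrb3 (chr8:27225776-27250616), the beta-adrenergic receptor of fat cells, was at 2.49, 3.46 and 9.34 FPKM in WT and at 21.2 and 5.15 in HFD. It was at 4.46, 6.50 and 4.70 FPKM in HAPN and at 5.23, 3.56 and 5.10 in HSAPN. HFD1/2 and WT3 were the highest libraries, as for Adipoq. At the other end the genes parted: HFD3 and HAPN3 had 0.174 and 0.0923 FPKM of Adipoq but 5.15 and 4.70 FPKM of Adrb3. HFD differed from WT by 1.102 on the log2 scale (SE 0.560, limma adjusted p = 0.477), and by 0.177 without HFD replicates 1 and 2.

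Of the 9 members, 5 passed the filter (Cidea, Cox7a1, Cox8b, Kcnk3 and Adrb3), and the other 4 were read from the whole table. No member was called at an adjusted p under 0.05 in the test over the 4 groups, where limma called 0.121% of the 1659 filtered genes and 0.0849% of the whole table. By unadjusted p under 0.05, 1 of the 5 filtered members passed that test, Cidea, beside 16.5% of the filtered genes. None was called in HFD against WT (0% of the filtered genes and 0.0566% of the whole table) or in HSAPN against HAPN (0.121% and 0%). Few genes of any kind were called, so a count of 0 members did not set them apart. None was called either in HAPN against HFD (0.181% and 0.0849%), HSAPN against HFD (0% and 0.0566%), HAPN against WT (0% and 0.0566%), HSAPN against WT (0% and 0%) or the 3 high-fat groups against WT (0.0603% and 0.0849%). Limma-voom on the recovered reads also called none, but for Cidea and Elovl3 it used rounded values that were not recovered whole reads.

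Complete separation of groups was no more common among the members than in the table. In HFD against WT, HAPN against HFD and HSAPN against HAPN no member of the 9 was without overlap, where 18.7, 25.2 and 16.6% of the whole table were. In HAPN against WT this held for 1 of 9 (Dio2, lower) beside 24.3%. In HSAPN against HFD and against WT it held for 1 of 9 (Cidea, lower) beside 19.2 and 25.9%.

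**Figure D5:**
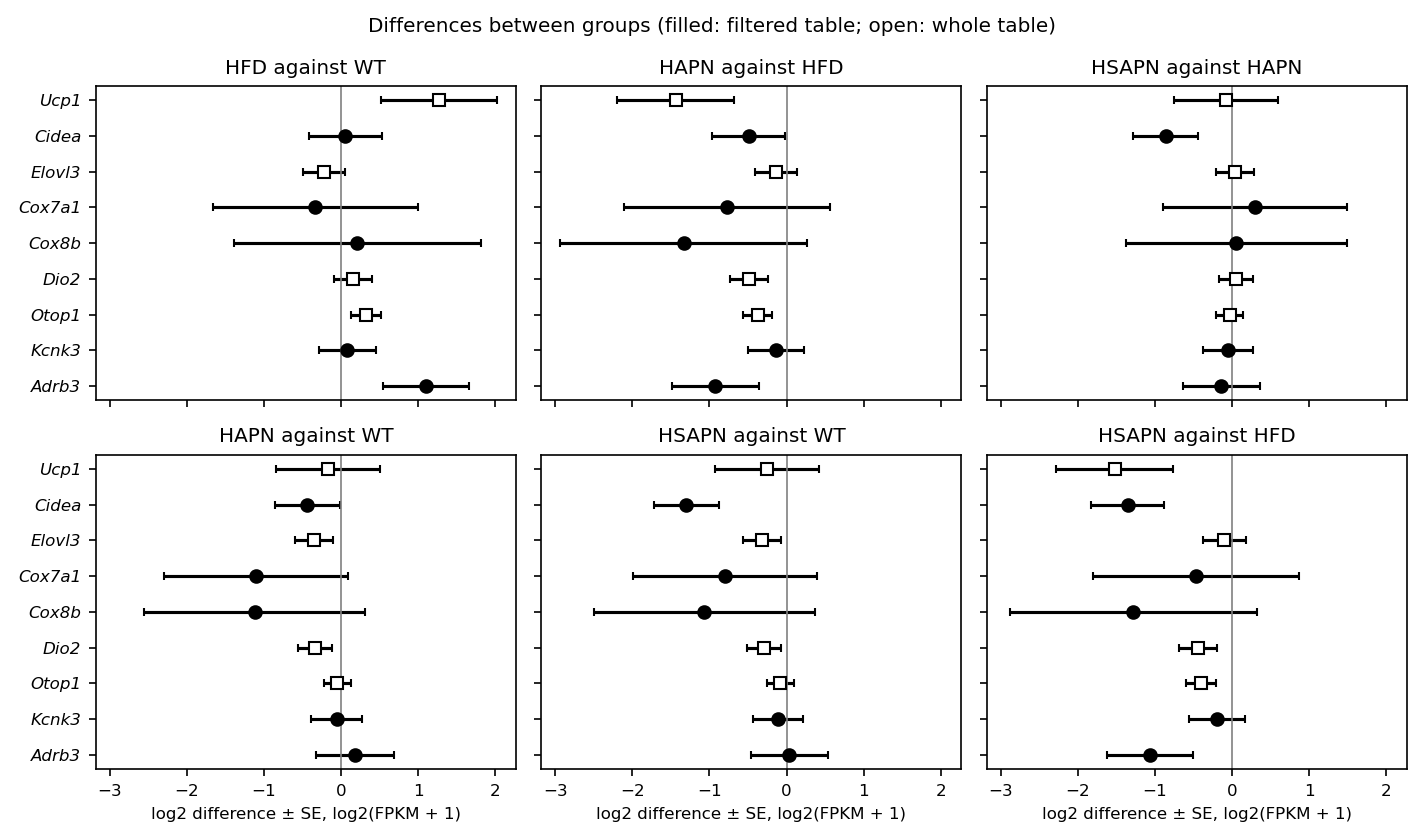
Log2 difference between groups on the log2(FPKM + 1) scale with its standard error, for each of the 9 members in 6 comparisons. Filled points are members tested in the filtered table and open points those read from the whole table; the widest bars are those of Cox7a1 and Cox8b, and none of the differences passed an adjusted p of 0.05.

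HFD1/2 was the highest library for 7 of the 9 members. It was also the highest for 35.7% of the 3506 genes of the table above 0 in some library, for 19 of 23 general adipocyte markers and for 19 of 28 genes of brown fat fuel use, signals and secreted factors. It was highest for none of 12 smooth muscle markers and for 4 of 9 red cell markers. Other lists outside fat also had many: 6 of 8 fibroblast markers, 9 of 13 nerve markers and 8 of 16 oxidase subunit genes. So did the short lists of heart muscle (3 of 3) and macrophage and leukocyte markers (2 of 2). The summed level of the adipocyte markers was 2192 FPKM in HFD1/2 and 245 FPKM in HFD3, whereas WT3 reached 1478 FPKM.

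Of the other genes of brown fat, none passed over the 4 groups. Among 16 of 32 genes of brown fat transcription and identity in the table, 8 were tested and 0 called. The smallest p-values were those of Tbx1, a marker of beige fat cells, and Aspg, each with a limma adjusted p of 0.294. Tbx1 was at 54.2, 46.9 and 19.2 FPKM in WT and between 10.3 and 26.7 FPKM in the high-fat libraries. WT1, with little Adipoq, had the most Tbx1. Pparg and Cebpa, the transcription factors of all fat cells, came next. Pparg ran from 2.66 to 6.71 FPKM and Cebpa from 41.6 to 68.5 FPKM over the libraries.

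Among 28 of 43 genes of fuel use, signals and secreted factors, 24 were tested, 0 were called and 4 had an unadjusted p under 0.05, a share near the 16.5% of all tested genes. Angptl4, an inhibitor of lipoprotein lipase, was at 4.14, 3.59 and 16.0 FPKM in WT, 36.3 and 28.3 in HFD and 13.6 to 21.5 in HAPN and HSAPN. HFD differed from WT by 2.17 on the log2 scale (SE 0.484, limma adjusted p = 0.3003), with both HFD libraries above all WT libraries. Gpihbp1, which carries lipoprotein lipase to the capillary surface, was at 8.19, 9.83 and 34.3 FPKM in WT and 24.6 to 56.2 FPKM in the high-fat libraries. Angptl4 and Gpihbp1 were thus high in HFD3, where Ucp1 rested on 1 read. Acot2, a mitochondrial thioesterase, was at 13.0 and 12.1 FPKM in HFD and 5.42 to 7.93 FPKM in WT. Slc27a2, a fatty acid transporter and acyl-CoA synthetase, was at 3.09 to 3.81 FPKM in WT and 0.392 to 2.51 FPKM on the high-fat diet (limma adjusted p over the 4 groups 0.285).

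In HFD against WT the direction was higher for 18 of the 24 tested fuel genes (median log2 difference 0.205), for 13 of 21 adipocyte markers (median 0.087) and for 57.6% of all tested genes (median 0.067). The mean log2(FPKM + 1) of the 24 fuel genes was 3.47 in HFD1/2 and 2.47 in HFD3. It was 2.35, 2.73 and 2.99 in WT, so only HFD1/2 lay above the WT libraries. In HAPN against HFD, which shares the HFD libraries, 0 of the 5 tested members were higher, beside 24.9% of all tested genes. That count rested on HFD1/2: without it all 5 were higher (log2 differences of 0.0022 to 1.14), beside 50.6% of tested genes.

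Of 18 uncoupling and futile cycle genes, 5 were in the table and 0 were called. Ckmt1, a mitochondrial creatine kinase, was at 19.7 to 39.4 FPKM in WT and 10.3 to 22.6 FPKM on the high-fat diet (limma adjusted p over the 4 groups 0.331). Ucp3, a relative of Ucp1 found in muscle and brown fat, was at 5.94 FPKM in HFD1/2 and at most 1.90 FPKM elsewhere. Alpl and Gamt were also measured and not called. All 16 of 20 oxidase subunit genes in the table were tested and 0 called. The smallest p was that of Cox6c (33.4 to 54.6 FPKM, limma adjusted p = 0.368), followed by Cox7a2, Cox6b1 and Cox7c.

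The genes closest to each member were ranked by Pearson's r of log2(FPKM + 1) over the 11 libraries. For Ucp1 they were Fcna (0.947), Pde3b (0.945), Aifm2 (0.936), Ptprn (0.933) and Mlxipl (0.931), each highest in HFD1/2. Aifm2 encodes a lipid droplet and mitochondrial oxidoreductase, Pde3b a phosphodiesterase of fat cells and Mlxipl a sugar-sensing transcription factor. Without HFD1/2 the 5 values were between 0.576 (Ptprn) and 0.903 (Aifm2). Spearman's rho over all libraries was between 0.606 (Fcna) and 0.784 (Aifm2). Plin1, a coat protein of fat droplets, had an r of 0.841 with Ucp1 (rank 47) and 0.836 without HFD1/2. WT3 was then highest for both, at 1.01 FPKM of Ucp1 and 14.4 of Plin1. HAPN2 came next, at 0.309 and 4.97 FPKM.

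For Cox7a1 the closest were Cox8b, the muscle enzyme gene Pgam2 (0.973), the muscle and nerve elongation factor Eef1a2 (0.971), the atrial light chain gene Myl4 (0.969) and Gm44386 (0.963). For Cox8b they were Eef1a2 (0.979), Cox7a1, the heart protease gene Corin (0.964), the atrial potassium channel gene Kcnj5 (0.960) and Myl4 (0.959). All these values stayed at or above 0.946 without HFD1/2.

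For Cidea they were Rasd1 (0.926), Etfa (0.910), Clpb (0.902), Acad11 (0.898) and Pyurf (0.892). Etfa encodes a subunit of the electron transfer flavoprotein and Acad11 an acyl-CoA dehydrogenase, both of fatty acid oxidation. For Kcnk3 they were Fxyd1 (0.916), Ecsit (0.913), Lgr4 (0.913), Ndrg2 (0.905) and Rgs5 (0.904). For Adrb3 they were Cntnap1 (0.943), Fgfrl1 (0.932), Miga2 (0.923), Ucp3 (0.922) and Pfkfb1 (0.916), of which Ucp3 was at 0.742 and Pfkfb1 at 0.756 without HFD1/2.

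The members did not vary as 1 block. Ucp1 and Otop1 had an r of 0.979, but a Spearman's rho of 0.494 and an r of 0.721 without HFD1/2. Ucp1 and Cidea had an r of 0.520, and 0.191 without HFD1/2. Apart from Cox7a1 and Cox8b, no pair of members had a rho above 0.824 (Cidea and Otop1).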

How the data were processed

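Messenger RNA of 12 aorta samples was analysed from the FPKM values deposited by the authors. Per the submitters' processing notes, featureCounts 1.5.0-p3, DESeq 1.8.3 and GRCm38 were used, with no role stated. The sources used here name no aligner, annotation, strand setting or rule for choosing the 3534 rows per file. The annotation places a gene on the opposite strand over part of 5 members (Kcnk3, Adrb3, Dio2, Cidea and Elovl3), whose reads would be mixed without strand.

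A symbol listed in more than 1 row was left out, giving 3532 genes, and 4 symbols had become dates. Whole reads were recovered with GENCODE M21 exon lengths: 95.7 to 97.0% of low values (up to 20 reads) were whole within 0.1. A TPM scaling would pass that check too and change the totals.

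The 1659 genes that reached 1 FPKM in 3 or more libraries were tested by limma-trend 3.58.1 (R 4.3.3) on log2(FPKM + 1), in 1 fit of 4 groups with 7 residual degrees of freedom, with Benjamini-Hochberg adjustment over all genes of a comparison. The pseudocount understates changes of low genes. Members below the filter were read from the same fit over the whole table. The script was tested on simulated data. Tables were made with pandas 2.3.3, NumPy 2.4.6 and SciPy 1.17.1 in Python 3.11.15, and figures with matplotlib 3.10.9.

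Named were all members in the table, up to 4 genes per other brown fat list with the smallest p over the groups, the 5 genes closest to each member with 1 FPKM in 3 libraries (and to Ucp1), and reference genes of fat and heart. Names beyond this were chosen after their values were seen. Members and lists were chosen with earlier results of these data known. Alternatives covered filter, pseudocount, scaling, weights, the identical files, the replicate number as a block, the groups fitted, recovered reads and each library left out. Likeness without HFD1/2 was added after the data were seen.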

Additional observations from a re-analysis of the deposited data

How the results depend on the processing

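Among the members that passed the filter (all 9 where no filter was used), the number called was 0 in 157 of 158 alternative counts. The exception was HSAPN against WT with array weights, where 1 member, Cidea, was called beside 395 of 1659 genes. The 4 members below the filter, counted over the whole table after the data were seen, had no call in 146 of 150 counts. The other 4 were all without HFD replicate 3: Ucp1, Otop1 and Dio2 over the 4 groups, in HAPN against HFD and in HSAPN against HFD, and Ucp1 and Otop1 in HFD against WT, beside 8.55 to 12.8% of the table. Over all tested genes the calls themselves varied: HAPN against WT gave 0 calls, 529 with array weights and 177 without WT replicate 3, and the 4-group test gave 2, 264 and 53. The 3 high-fat groups against WT gave 1, 263 and 240. Single members gave 527 alternative values, of which 29 changed direction and 6 gained a call. For HFD against WT, median-ratio scaling gave -0.017 and the replicate block -0.045 for Cidea (log2), the identical files as 2 libraries gave 0.306 for Cox7a1, and array weights gave -0.205 for Cox8b and -0.139 for Kcnk3. For HSAPN against HAPN, array weights gave -0.312 for Cox7a1 and -0.850 for Cox8b. The causes were not tested.

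Leaving out 1 library at a time, log2 differences of HFD against WT ran from -0.373 to 2.90 (Ucp1), -0.541 to 0.646 (Cidea), -0.398 to 0.138 (Elovl3), -2.25 to 1.58 (Cox7a1), -1.92 to 2.34 (Cox8b), -0.339 to 0.641 (Dio2), -0.107 to 0.758 (Otop1), -0.291 to 0.387 (Kcnk3) and 0.177 to 2.03 (Adrb3). Those of HSAPN against HAPN ran from -0.564 to 0.856 (Cox7a1), -1.12 to 0.707 (Cox8b), -0.065 to 0.134 (Dio2), -0.176 to 0.085 (Kcnk3) and -0.229 to 0.0027 (Adrb3). HFD rests on 2 libraries, so its differences move with either of them.

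Pairing by replicate number was looked at with HFD1/2 taken as number 1. Of 15 pairs with the same number in different groups, 4 had a correlation of deviations above 0.1 (range -0.592 to 0.499). Of 11 libraries, 2 correlated best with their own number. HFD1/2 is also replicate 2, and its r was 0.371 with WT2, 0.577 with HAPN2 and -0.174 with HSAPN2. Whether the numbers pair the samples therefore stayed unsettled. With the replicate block, in which HFD1/2 also had number 1, Ucp1 in HFD against WT was 1.29 (limma adjusted p = 0.661) and no member was called. Median-ratio scaling moved the median of all tested genes in HAPN against HFD from -0.242 to -0.013. Set against the heart muscle list in place of the adipocyte list, the median difference of Ucp1 went from -2.60 to -3.76 log2 units and that of Cox8b from 0.60 to -0.71.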

Other observations

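The genes in which HFD1/2 stood farthest above the next library were chosen here after their values were seen. Among 1715 genes, the ratio of HFD1/2 to the next library was largest for Th, tyrosine hydroxylase of sympathetic nerves, at 1.25 FPKM against 0.0746 in WT3. Npy, a sympathetic co-transmitter, was second, at 12.0 FPKM against 0.831 in WT3. Ucp1 was 9th of the 1715, between the secretin receptor gene Sctr (2.50 against 0.263 FPKM) and the neurofilament gene Nefl (2.16 against 0.314 FPKM). Chrna3, a nicotinic receptor subunit of autonomic ganglia, was 13th. Prg4, a joint and serosal lubricant, was 3rd, at 25.0 against 1.95 FPKM.

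Of 13 nerve markers in the table, 9 were highest in HFD1/2, and their summed level was 79.8 FPKM there and 28.3 FPKM in HFD3. Other nerve markers did not follow: Stmn2 was at 12.8 FPKM in HFD3 and 11.4 in HFD1/2, and Gap43 at 10.4 and 9.41. Ebf2, a transcription factor that marks brown fat precursors, was at 0.889 FPKM in HFD1/2 and at most 0.204 FPKM elsewhere.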
